A study of Mus musculus with 6 samples.

Results

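The renin-angiotensin system genes followed here are 9 named genes, taken as the rows of the 6 count files that carry these symbols, out of 18749 gene rows in all. They are the precursor Agt, the peptidases Ace, Enpep and Lnpep, the receptors Agtr1a, Agtr1b and Agtr2, the receptor-associated protein Agtrap, and Atp6ap2, known as the (pro)renin receptor. All 9 symbols had a row, and 8 passed the filter on low counts (Agtr2 did not). RNA of aortas was compared, and the sample titles name no segment of the vessel. The libraries were 3 from Apoe-/- mice transplanted with Apoe-/-Sept2C111A marrow (Sept2C111A recipients). Another 3 came from Apoe-/- mice transplanted with Apoe-/- marrow (Apoe-/- marrow recipients). Every mouse, in both groups, lacked Apoe and had received angiotensin II by infusion for 28 days, so the hormone at the end of this pathway was supplied from outside in all 6 libraries, and there is no group without it. The dose of the hormone, the age and sex of the mice and the extent to which donor marrow replaced the host's blood cells were not stated in the labels. The Sept2C111A allele exchanges a cysteine of septin-2, which gene counts cannot show. Donor alleles are carried by blood-derived cells, while smooth muscle, endothelium and fibroblasts of the wall stay of recipient genotype.

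In the classical pathway, renin from the kidney cuts angiotensinogen (Agt), made mainly by liver and also by fat, to angiotensin I, and angiotensin-converting enzyme (Ace) cuts that to angiotensin II. Angiotensin II contracts smooth muscle through the AT1 receptor, which mice and rats encode in a pair of genes, Agtr1a and Agtr1b, while the AT2 receptor (Agtr2) is abundant in fetal tissue and scarce in the adult. Aminopeptidases, among them Enpep and Lnpep, trim the hormone to shorter peptides. In Apoe-/- mice, infused angiotensin II is a standard way to produce aortic aneurysms, and in the mouse abdominal aorta the contraction it causes is known to run through Agtr1b.

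Agtr1b stood apart from the other members: its level was 4.57-fold higher in Sept2C111A recipients, and reads assigned to Agtr1a and Agtr1b together did not differ detectably. Enpep was 1.84-fold higher, and its groups failed to overlap only through the scaling of library sizes. Agt, Agtr1a, Ace, Agtrap, Atp6ap2 and Lnpep had overlapping groups. Agtr2 had at most 9 reads in 5 libraries and reached 310 reads in 1 library of the Apoe-/- marrow group. None of the 8 tested members passed edgeR's quasi-likelihood test at a Benjamini-Hochberg adjusted p under 0.05, as none of the 14466 genes tested did (percent called 0.0). At an unadjusted p under 0.05 edgeR had 2 of the 8 members, both higher, beside 2170 genes (15.0%) of all tested, of which 892 (6.17%) were higher and 1278 (8.83%) lower. DESeq2, run as another test, called 1 of the 8, Agtr1b, beside 549 (3.56%) of 15431 genes, of which 138 (0.894%) were higher and 411 (2.66%) lower.

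The libraries held 17082719 to 20494928 expected counts each. Defining markers of the aortic wall were abundant in all 6: 8 smooth muscle genes summed to between 15630 and 23390 CPM in Sept2C111A recipients and between 5854 and 18332 CPM in Apoe-/- marrow recipients. CPM are read counts normalised to sequencing depth, here on library sizes scaled by TMM (trimmed mean of M values). Libraries of the Apoe-/- marrow group stood apart from one another: the low smooth muscle value belonged to library 3, and library 1 held 2908 CPM of 6 neutrophil markers, against 88.2 and 331 CPM in libraries 2 and 3 of its group and 15.8 to 28.7 CPM in Sept2C111A recipients. Summed markers of hepatocytes, the main source of Agt, were at most 2.60 CPM, and those of kidney tubule at most 1.09 CPM, in every library. In whole tissue, fewer cells of a type and less RNA per cell cannot be told apart. The labels name no batch, and they do not say whether the 3 samples of a group came from separate mice, so p-values measure the spread between these samples, which may in part be technical.

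**Figure D1:**
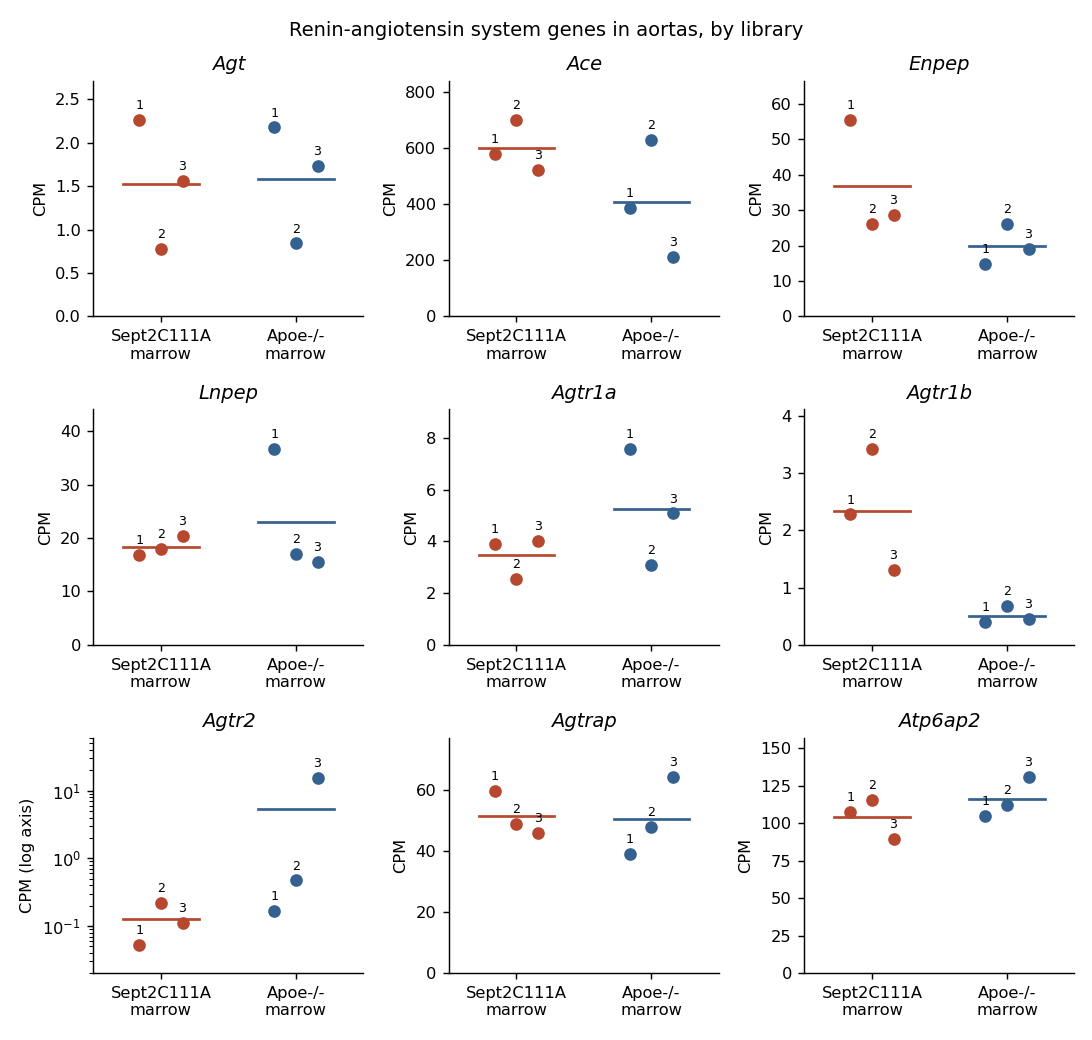
CPM (TMM-scaled) of the 9 genes in each library, with Sept2C111A marrow left and Apoe-/- marrow right; points are libraries numbered by replicate, lines are group means, and the Agtr2 panel has a log axis. Agtr1b is above 1.3 CPM in each Sept2C111A library and below 0.7 CPM in each Apoe-/- marrow library, and Agtr2 is high only in Apoe-/- marrow library 3.

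Agt (chromosome 8, 124556534 to 124569706, mm10) encodes angiotensinogen, the only known precursor of angiotensin II. Its level was 2.26, 0.773 and 1.56 CPM in Sept2C111A recipients 1 to 3, against 2.17, 0.841 and 1.73 CPM in Apoe-/- marrow recipients 1 to 3. The spread within each group was far wider than the gap between them, and the values rest on 14 to 43 reads a library. The log2 fold change was -0.05 (SE 0.53; edgeR adjusted p = 0.973), with a 95% interval from -1.09 to 1.00. Fat around the vessel is a known source of Agt, and Adipoq, the adipocyte hormone, was at 317, 129 and 168 CPM in Sept2C111A recipients and at 120, 156 and 59.2 CPM in Apoe-/- marrow recipients. The log2 ratio of Agt to Adipoq averaged -6.62 ± 0.25 in Sept2C111A recipients and -5.70 ± 1.07 in Apoe-/- marrow recipients (SD, n = 3 each; 0.5 CPM added to both genes). That difference of -0.92 had an exact two-sided permutation p of 0.4 (0.533 adjusted over the 4 ratios compared), where 3 libraries against 3 cannot go below 0.1.

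Ace (chromosome 11, 105967945 to 105989964), which makes angiotensin II from angiotensin I and also breaks down bradykinin, was the most abundant of the 9 genes per length of transcript. It stood at 123 ± 18.3 CPM per kb in Sept2C111A recipients and 83.6 ± 42.9 CPM per kb in Apoe-/- marrow recipients (SD, n = 3 each). By library, Ace was at 579, 700 and 524 CPM in Sept2C111A recipients, against 389, 630 and 211 CPM in Apoe-/- marrow recipients. The groups overlapped, because Apoe-/- marrow library 2 lay within the range of the Sept2C111A libraries, and Apoe-/- marrow library 3 was the lowest of all. The log2 fold change was 0.55 (SE 0.40; edgeR adjusted p = 0.496). It became 1.01 without Apoe-/- marrow library 2, where DESeq2 gave an adjusted p of 0.0359 and edgeR 0.2, and it was 0.24 without Apoe-/- marrow library 3. Ace is best known from the endothelial surface, and smooth muscle and macrophages also make it.

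The level of Ace is set here beside markers of smooth muscle and endothelium. The 8 smooth muscle genes summed to 17041, 23390 and 15630 CPM in Sept2C111A recipients and to 16943, 18332 and 5854 CPM in Apoe-/- marrow recipients, so that library 2 was highest in each group for both and Apoe-/- marrow library 3 lowest for both. Apoe-/- marrow library 1, however, had more of these markers than Sept2C111A library 3, and about as much as Sept2C111A library 1, with less Ace than either. The 8 endothelial genes summed to 1299, 621 and 1428 CPM in Sept2C111A recipients and to 739, 699 and 1328 CPM in Apoe-/- marrow recipients, an order that put Sept2C111A library 2, the highest for Ace, at the bottom. The part of smooth muscle content in the Ace values was not tested. The log2 ratio of Ace to the endothelial adhesion gene Pecam1 averaged 0.59 ± 0.91 in Sept2C111A recipients and 0.19 ± 1.10 in Apoe-/- marrow recipients, with an exact two-sided permutation p of 0.7 (n = 3 each; 0.7 when adjusted over the 4 ratios). The genes whose levels followed Ace most closely over the 6 libraries were Pdgfd, a platelet-derived growth factor, Fam129a and Adamtsl5. Their log2 levels, centred on the mean, differed from those of Ace by a root mean square of 0.07, 0.07 and 0.08, the smallest of 12775 genes compared. Pdgfd was at 122, 147 and 109 CPM in Sept2C111A recipients, against 75.7, 119 and 39.7 CPM in Apoe-/- marrow recipients.

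**Figure D2:**
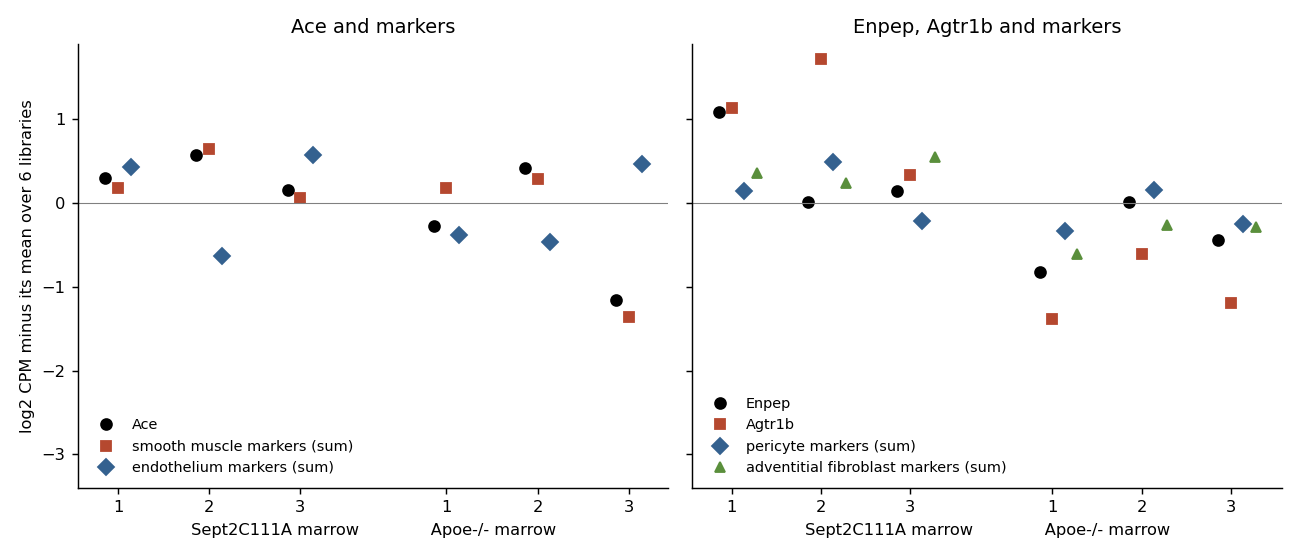
Log2 CPM of Ace beside the summed smooth muscle and endothelium markers (left panel), and of Enpep and Agtr1b beside the summed pericyte and adventitial fibroblast markers (right panel), each centred on its mean over the 6 libraries; each point is 1 library. Ace and smooth muscle markers are both lowest in Apoe-/- marrow library 3, and fibroblast markers and Agtr1b are higher in every Sept2C111A library, while Enpep is nearly level between Sept2C111A library 2 and Apoe-/- marrow library 2.

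Enpep (chromosome 3, 129269175 to 129332720), aminopeptidase A, removes the first residue of angiotensin II to give angiotensin III, and its known sites include kidney, vessel pericytes and early B cells. Its level was 55.4, 26.22 and 28.7 CPM in Sept2C111A recipients, against 14.7, 26.16 and 19.1 CPM in Apoe-/- marrow recipients. All 3 Sept2C111A libraries lay above all 3 others, but the lowest of them and Apoe-/- marrow library 2 were practically level. Sept2C111A library 2 had 475 reads of 18736010, and Apoe-/- marrow library 2 had 498 of 18946477. Their order thus rests on the TMM scaling, and by depth alone the groups overlap. Sept2C111A library 1 was well above the rest of its group. On TMM-scaled levels, groups failed to overlap for 2 of the 8 members, Agtr1b and Enpep. The same held for 3339 (23.1%) of all tested genes, with 1615 (11.2%) higher and 1724 (11.9%) lower. The log2 fold change was 0.88 (SE 0.35; edgeR adjusted p = 0.331; DESeq2 adjusted p = 0.208), and 0.46 without Sept2C111A library 1.

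Markers of other cell types are set beside Enpep here. All 8 adventitial fibroblast markers were fitted higher, and their sum was 7654, 7024 and 8772 CPM in Sept2C111A recipients, against 3919, 4978 and 4905 CPM in Apoe-/- marrow recipients, with no overlap. Of 5 pericyte markers 4 were fitted higher and Pdgfrb lower (-0.23 in log2), with sums of 1192, 1522 and 934 CPM in Sept2C111A recipients and 859, 1205 and 912 CPM in Apoe-/- marrow recipients, which overlapped. All 8 adipocyte markers were fitted higher too, with sums of 4497, 2061 and 4600 CPM in Sept2C111A recipients and 2896, 2003 and 1063 CPM in Apoe-/- marrow recipients, again with overlap. Their part in the Enpep difference was not tested.

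Lnpep (chromosome 17, 17521410 to 17625050), the insulin-regulated aminopeptidase, travels with the glucose transporter GLUT4 in fat and muscle and binds angiotensin IV. It stood at 16.8, 17.9 and 20.3 CPM in Sept2C111A recipients, against 36.7, 17.02 and 15.5 CPM in Apoe-/- marrow recipients. A single library, Apoe-/- marrow 1, stood far above the other 5, which lay close together. The log2 fold change was -0.33 (SE 0.35; edgeR adjusted p = 0.641), and it turned to 0.18 without that library. This was the library with 2908 CPM of neutrophil markers, and their part in its Lnpep level was not tested.

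The AT1 receptor genes are near copies, and their reads cannot be assigned with equal certainty everywhere. Over the 1077 coding bases of their longest annotated coding sequences, Agtr1a (chromosome 13, 30336441 to 30382867) and Agtr1b (chromosome 3, 20314473 to 20367177) were identical at 978 positions (90.8%). The longest identical run was 66 bases, 33 of 1028 windows of 50 coding bases in Agtr1a occurred unchanged in Agtr1b, and 0 of 1024 windows outside the coding sequence did. Both sequences are shown at 2 places because the difference between the groups rests on telling them apart. The first pair is the 60-base stretch with the most differences, coding bases 964 to 1023, with 13 differing bases in capitals, at chr13:30381917-30381976 (plus strand) for Agtr1a and chr3:20315418-20315477 (minus strand) for Agtr1b, mm10, from GENCODE vM21:
Agtr1a: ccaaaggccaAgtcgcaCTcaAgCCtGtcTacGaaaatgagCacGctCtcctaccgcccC
Agtr1b: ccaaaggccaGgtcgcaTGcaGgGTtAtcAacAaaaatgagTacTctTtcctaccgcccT
The second pair opens the longest identical run, coding bases 75 to 134, at chr13:30381028-30381087 (plus strand) and chr3:20316307-20316366 (minus strand). Only a read that lies wholly within the run could come from either gene there:
Agtr1a: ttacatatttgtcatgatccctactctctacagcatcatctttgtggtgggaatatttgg
Agtr1b: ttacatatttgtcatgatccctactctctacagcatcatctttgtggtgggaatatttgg

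The counting program divides reads that match both genes, which showed as fractional counts for the pair in 5 of 6 libraries. Sept2C111A library 1, for example, was given 74.62 reads of Agtr1a and 43.38 of Agtr1b, which sum to 118.0. In Sept2C111A library 3 the sum was 95.6, not a whole number, so its fractions did not come from division within this pair alone. Neither the read length nor the number of divided reads was stated in the labels.

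Agtr1b was assigned 43.4, 62.0 and 23.5 reads in Sept2C111A recipients, against 7.10, 13.0 and 9.18 reads in Apoe-/- marrow recipients. As levels these were 2.28, 3.42 and 1.31 CPM in Sept2C111A recipients and 0.396, 0.683 and 0.454 CPM in Apoe-/- marrow recipients. The groups did not overlap: the lowest Sept2C111A library (3) was above the highest Apoe-/- marrow library (2). The log2 fold change was 2.19 (SE 0.48; 95% interval 1.26 to 3.13; edgeR adjusted p = 0.316), and DESeq2 gave an adjusted p of 0.0138. With 1 library left out, DESeq2 called Agtr1b in 2 of 6 fits, with adjusted p from 0.00878 to 0.115, while the fold change stayed between 1.82 and 2.49 in log2. Apoe-/- marrow libraries 1 and 3 were under 10 reads, so Agtr1b met the filter on low counts (minimum count 10) mainly through the Sept2C111A libraries. With no such filter its log2 fold change was 2.20 (edgeR adjusted p = 0.368).

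Agtr1a, the main AT1 gene of most mouse tissues, was fitted lower, without a call. It was at 3.92, 2.54 and 4.01 CPM in Sept2C111A recipients, against 7.58, 3.10 and 5.08 CPM in Apoe-/- marrow recipients. The groups overlapped through Apoe-/- marrow library 2, and the log2 fold change was -0.59 (SE 0.40; edgeR adjusted p = 0.472), or -0.22 without Apoe-/- marrow library 1. Beside Acta2, the smooth muscle actin, the log2 ratio averaged -10.79 ± 0.67 in Sept2C111A recipients and -9.89 ± 1.07 in Apoe-/- marrow recipients, with an exact two-sided permutation p of 0.3 (n = 3 each; 0.533 when adjusted over the 4 ratios). The genes of most similar pattern to Agtr1a over the 6 libraries were Prdx6, a peroxiredoxin, Pgd, of the pentose phosphate pathway, and Polr3g, a subunit of RNA polymerase III, at root mean square differences of 0.08, 0.09 and 0.10 in log2. For Agt they were Xdh, xanthine dehydrogenase, Gm4070 and Nlrc5, at 0.13, 0.15 and 0.15.

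Taken as 1 receptor, AT1 reads showed no detectable difference. The summed reads were 118.0, 108.0 and 95.6 in Sept2C111A recipients, against 143.0, 72.0 and 112.0 in Apoe-/- marrow recipients, and the summed level averaged 5.82 ± 0.46 CPM in Sept2C111A recipients and 5.76 ± 2.11 CPM in Apoe-/- marrow recipients (SD, n = 3 each). With both rows added before the fit, a choice made after seeing the data, the log2 fold change was 0.02 (SE 0.31; 95% interval -0.60 to 0.63; edgeR adjusted p = 0.982). The division of these reads lay further apart between the groups. Agtr1b made up 36.8%, 57.4% and 24.6% of AT1 reads in Sept2C111A recipients, against 4.97%, 18.1% and 8.20% in Apoe-/- marrow recipients. The 2 groups did not overlap and differed by 29.2 percentage points, with an exact two-sided permutation p of 0.1, the smallest that 3 against 3 allows. Exact binomial 95% intervals on the rounded reads, which cover counting error only, were 16.7% to 34.9% in Sept2C111A library 3 and 9.98% to 28.9% in Apoe-/- marrow library 2, so these 2 libraries are not separated by counting alone. The log2 ratio of Agtr1a to Agtr1b averaged 0.54 ± 0.85 in Sept2C111A recipients and 2.44 ± 0.79 in Apoe-/- marrow recipients, a difference of -1.90 (exact two-sided permutation p = 0.1, n = 3 each; 0.4 when adjusted over the 4 ratios).

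**Figure D3:**
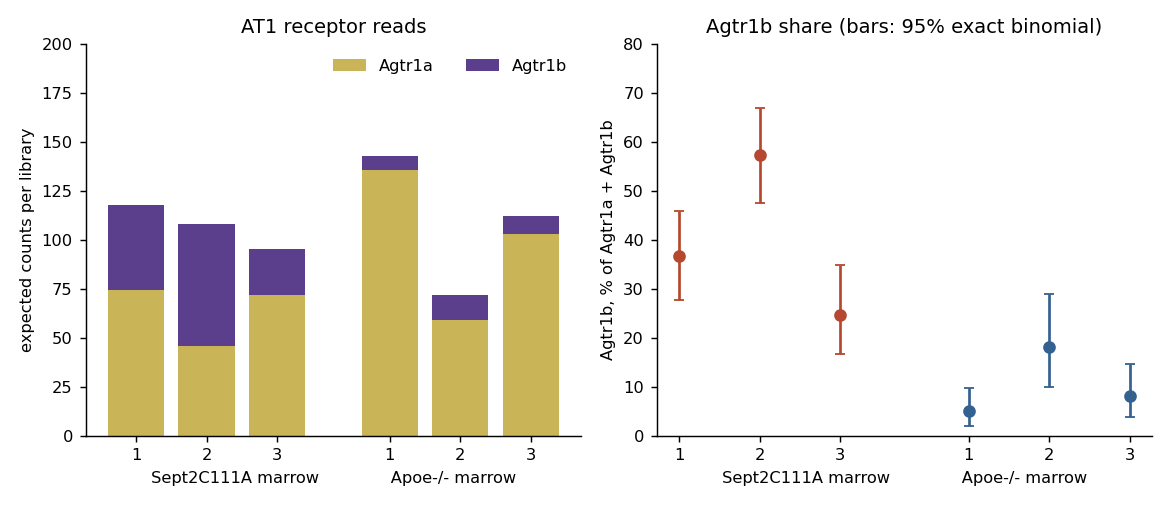
Left, expected counts assigned to Agtr1a and Agtr1b in each library, stacked; right, the share of Agtr1b in their sum with 95% exact binomial intervals. Total AT1 reads overlap between the groups, while the Agtr1b share is 24.6% to 57.4% in Sept2C111A recipients and 4.97% to 18.1% in Apoe-/- marrow recipients.

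From high to low, the libraries ran 2, 1, 3 by Agtr1b level in Sept2C111A recipients and 2, 3, 1 in Apoe-/- marrow recipients. The summed pericyte markers given above for Enpep had these orders, but in Apoe-/- marrow recipients no single pericyte marker ran 2, 3, 1. There Cspg4 was at 400, 523 and 200 CPM in libraries 1 to 3, and Pdgfrb at 238, 363 and 501 CPM. In Sept2C111A recipients the order 2, 1, 3 was not particular to pericytes, as summed smooth muscle markers also had it. In Apoe-/- marrow recipients smooth muscle markers ran 2, 1, 3, and Agtr1b in libraries 3 and 1 rests on 9.18 and 7.10 reads. Summed pericyte markers were at 1205 CPM in Apoe-/- marrow library 2 and at 1192 and 934 CPM in Sept2C111A libraries 1 and 3. Agtr1b was lower in the first of these libraries than in the other 2. Adventitial fibroblast markers were separate between the groups in the same direction as Agtr1b, and within Sept2C111A recipients they ran 3, 1, 2 from high to low. Markers of adrenal cortex, where Agtr1b is best known, summed to 5.95 to 7.23 CPM in Sept2C111A recipients and 4.74 to 6.02 CPM in Apoe-/- marrow recipients. Most of each sum was Star, at 5.57, 6.40 and 5.00 CPM in Sept2C111A recipients and 4.96, 5.36 and 3.76 CPM in Apoe-/- marrow recipients. In every library Cyp11a1 was at 0.611 CPM or less, Mc2r at 0.692 CPM or less and Cyp11b1, the cortical hydroxylase, at 0.157 CPM or less. The part of these cell types in the Agtr1b difference was not tested.

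Agtr2 (chromosome X, 21484544 to 21489164) encodes the AT2 receptor, which generally opposes AT1 signalling. It had 1, 4 and 2 reads in Sept2C111A recipients, against 3, 9 and 310 reads in Apoe-/- marrow recipients. Apoe-/- marrow library 3 thus held 94.2% of the 329 reads of the gene, at 15.3 CPM, and no other library exceeded 0.473 CPM. The gene failed the filter on low counts and has no test in the filtered fit. Without the filter the fitted log2 fold change was -5.31 (SE 1.83; edgeR adjusted p = 0.368), a value set by that library: the difference of mean log2 levels (0.5 CPM added) was -1.80 with all libraries and -0.37 without it. The same library had the lowest smooth muscle markers, and their relation to its Agtr2 reads was not tested.

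Agtrap and Atp6ap2 showed no detectable difference. Agtrap (chromosome 4, 148077061 to 148088031) encodes a membrane protein that binds the AT1 receptor and favours its internalisation. It was at 59.8, 48.9 and 46.0 CPM in Sept2C111A recipients, against 39.3, 47.9 and 64.3 CPM in Apoe-/- marrow recipients. The range of the Sept2C111A libraries lay within that of the Apoe-/- marrow libraries, and the log2 fold change was 0.03 (SE 0.21; 95% interval -0.38 to 0.45; edgeR adjusted p = 0.951).

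Atp6ap2 (chromosome X, 12587801 to 12617049) binds renin and prorenin and is also an accessory subunit of the proton pump of lysosomes (V-ATPase). It stood at 107, 116 and 89.4 CPM in Sept2C111A recipients, against 105, 112 and 131 CPM in Apoe-/- marrow recipients. The groups overlapped, and the log2 fold change was -0.16 (SE 0.15; 95% interval -0.46 to 0.14; edgeR adjusted p = 0.616), the narrowest interval of the 8. Of 16 other V-ATPase genes 13 were fitted lower and 3 higher, beside 7222 lower and 7244 higher of all tested genes. Their median was -0.21 in log2, beside 0.001 for all tested genes, and 0 were called by edgeR or DESeq2, with 2 lower at an unadjusted p under 0.05, where 8.83% of all tested genes were lower. The lowest p belonged to Atp6v0c, a ring subunit, at 194, 184.95 and 176 CPM in Sept2C111A recipients and 294, 216 and 340 CPM in Apoe-/- marrow recipients (log2 fold change -0.61, SE 0.20; edgeR adjusted p = 0.316). The next were the pump's cytosolic subunits Atp6v1b2, at -0.68, and Atp6v1c1, at -0.23 in log2.

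**Figure D4:**
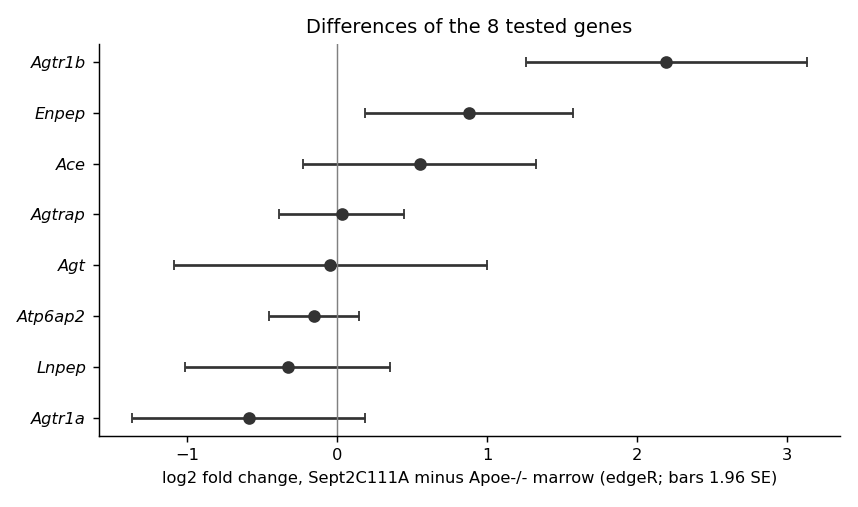
Log2 fold changes of the 8 tested members, Sept2C111A minus Apoe-/- marrow, with 95% intervals from edgeR. The bars of Agtr1b (1.26 to 3.13) and Enpep (0.19 to 1.57) lie above 0 before adjustment for 14466 genes, and the other 6 cross it.

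Compared per kilobase of the longest coding transcript, the members covered a wide range of levels. Ace led in Sept2C111A recipients at 123 CPM per kb, followed by Atp6ap2 (44.8 ± 5.76), Agtrap (12.9 ± 1.82) and Enpep (8.79 ± 3.87), and then by Agtr1a (1.59 ± 0.37), Lnpep (1.52 ± 0.15), Agtr1b (1.09 ± 0.49), Agt (0.808 ± 0.393) and Agtr2 (0.039 ± 0.026), each as CPM per kb ± SD. In Apoe-/- marrow recipients the first 6 places were held in the same order, from Ace (83.6 CPM per kb) to Lnpep (1.91 ± 0.98 CPM per kb). By group mean Agtr1b came last there at 0.238 ± 0.071 CPM per kb, behind Agt (0.836 ± 0.359 CPM per kb). Agtr2 stood above both at 1.62 ± 2.64 CPM per kb only through library 3 (4.67 CPM per kb). In Apoe-/- marrow libraries 1 and 2 Agtr2 was at 0.051 and 0.144 CPM per kb, below Agtr1b at 0.184 and 0.318 CPM per kb. Neighbours whose ranges overlapped were Agtrap and Enpep, and every pair from Agtr1a down to Agt, in Sept2C111A recipients. In Apoe-/- marrow recipients they were Ace and Atp6ap2, and every pair from Agtr1a through Lnpep and Agtr2 to Agt.

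Other peptidases of angiotensin formed a list of 16, of which 13 were tested: 5 were fitted higher and 8 lower, and their median was -0.28 in log2. Ctsd, the lysosomal cathepsin D, which can act on angiotensinogen, was at 1438, 1107 and 1104 CPM in Sept2C111A recipients, against 1738, 1896 and 2315 CPM in Apoe-/- marrow recipients. The groups did not overlap (log2 fold change -0.71, SE 0.25; edgeR adjusted p = 0.316), and DESeq2 called it, alone in this list (adjusted p = 0.0243). Macrophage markers, cells rich in cathepsin D, summed to 1459 to 2258 CPM in Sept2C111A recipients and 1971 to 3246 CPM in Apoe-/- marrow recipients, with 7 of 8 fitted lower, and their part was not tested. Prep, a prolyl endopeptidase that makes angiotensin 1-7, was at 38.0, 43.4 and 35.03 CPM in Sept2C111A recipients, against 53.7, 47.1 and 55.4 CPM in Apoe-/- marrow recipients (log2 fold change -0.43; edgeR adjusted p = 0.316).

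Mcpt4, the mast cell chymase that makes angiotensin II without Ace, was at 15.0, 8.94 and 15.2 CPM in Sept2C111A recipients, against 8.92, 5.62 and 3.06 CPM in Apoe-/- marrow recipients. The groups were just separate, and the log2 fold change was 1.15 (SE 0.43; edgeR adjusted p = 0.32). Of 6 tested mast cell markers, Mcpt4 among them, 5 were fitted higher, and their list summed to 63.7, 33.6 and 61.6 CPM in Sept2C111A recipients and to 40.9, 33.5 and 38.5 CPM in Apoe-/- marrow recipients. Ren1, the gene of renin, is named for its place in the pathway, with its values already seen. It was at 1.16, 4.47 and 0.667 CPM in Sept2C111A recipients, against 6.02, 2.10 and 0.395 CPM in Apoe-/- marrow recipients, with full overlap (log2 fold change -0.43, SE 1.05; edgeR adjusted p = 0.852).

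**Figure D5:**
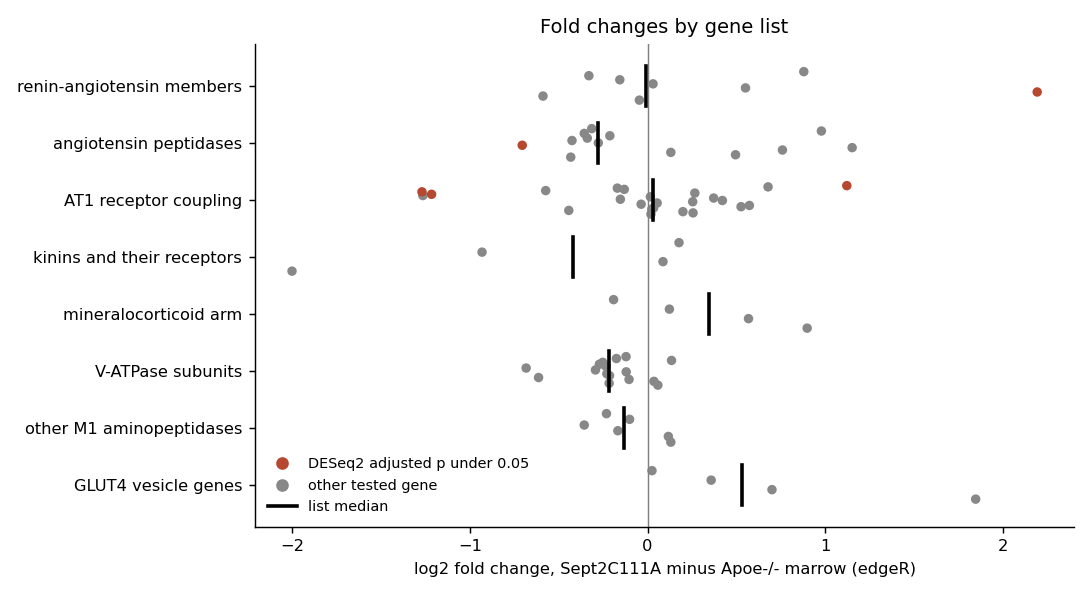
Log2 fold changes (edgeR, Sept2C111A minus Apoe-/- marrow) of every tested gene in the renin-angiotensin members and 7 related lists; points are genes, red where DESeq2's adjusted p is under 0.05, and black bars are list medians. Called genes are Agtr1b, Ctsd, Ptk2b, Arrb2 and Rgs5.

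Downstream of the receptor, 24 genes of AT1 coupling were tested. Of these, 15 were fitted higher and 9 lower, their median was 0.03 in log2, and DESeq2 called 1 higher and 2 lower, beside 0.894% higher and 2.66% lower of all genes it tested. Rgs5, a brake on G-protein signalling of pericytes and arterial smooth muscle, was at 948, 689 and 492 CPM in Sept2C111A recipients, against 296, 388 and 295 CPM in Apoe-/- marrow recipients. All Sept2C111A libraries were higher (log2 fold change 1.12, SE 0.28; edgeR adjusted p = 0.316; DESeq2 adjusted p = 0.0122). The summed pericyte markers are given above with Enpep, and their part was not tested.

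Arrb2, the beta-arrestin that draws receptors off the membrane, was at 48.6, 34.7 and 36.7 CPM in Sept2C111A recipients, against 137, 63.7 and 88.7 CPM in Apoe-/- marrow recipients (log2 fold change -1.27, SE 0.30; edgeR adjusted p = 0.316; DESeq2 adjusted p = 0.0111). Ptk2b, a calcium-activated tyrosine kinase, was at 36.6, 29.6 and 28.2 CPM in Sept2C111A recipients, against 97.8, 46.3 and 75.1 CPM in Apoe-/- marrow recipients (log2 fold change -1.21, SE 0.28; edgeR adjusted p = 0.316; DESeq2 adjusted p = 0.0107). Both genes are also strongly expressed in leukocytes, and both had their highest level in Apoe-/- marrow library 1 and their lowest of that group in library 2, as neutrophil markers did. The part of leukocyte content was not tested. The G-protein subunits of the receptor's main route, Gnaq and Gna11, had log2 fold changes of 0.02 and 0.26 and no call; these 2 were picked after their values were seen.

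The remaining lists gave 0 calls by edgeR or DESeq2, and at an unadjusted p under 0.05 edgeR had 2 of their genes, both higher and of GLUT4 vesicles, where 6.17% of all tested genes were higher. Of 4 tested kinin genes 2 were fitted higher and 2 lower; Bdkrb1, the inducible bradykinin receptor, was at 2.42, 1.82 and 1.89 CPM in Sept2C111A recipients, against 6.25, 2.15 and 3.31 CPM in Apoe-/- marrow recipients (log2 fold change -0.93; edgeR adjusted p = 0.362). The precursor Kng1 was fitted lower with an SE of 1.41 in log2 (edgeR adjusted p = 0.488). The constitutive receptor Bdkrb2 was fitted at 0.18 in log2, with an SE of 0.26 (edgeR adjusted p = 0.744). Of 4 tested genes of the mineralocorticoid arm 3 were fitted higher, among them its receptor Nr3c2 (log2 fold change 0.90, SE 0.48; edgeR adjusted p = 0.389). The cortisone-activating enzyme Hsd11b1 was at 0.57 and the kinase Sgk1 at -0.19 in log2. Of 6 tested aminopeptidases related to Enpep and Lnpep 2 were fitted higher and 4 lower, and those of smallest p were Rnpep, Lta4h and Npepps, at log2 fold changes of -0.36, -0.23 and -0.17. All 4 genes of GLUT4 vesicles, which carry Lnpep, were fitted higher, led by the transporter Slc2a4 itself at 67.6, 36.5 and 118 CPM in Sept2C111A recipients, against 24.2, 30.7 and 6.72 CPM in Apoe-/- marrow recipients (log2 fold change 1.85, SE 0.64; edgeR adjusted p = 0.316). The sorting receptor Sort1 and the fusion protein Vamp2 had log2 fold changes of 0.70 and 0.36. Adipocyte markers, given above, were higher in fit as well, and their part was not tested. Mas1, the receptor of angiotensin 1-7, was at 0.525, 0.718 and 0.5 CPM in Sept2C111A recipients, against 0.610, 0.370 and 0.247 CPM in Apoe-/- marrow recipients (edgeR adjusted p = 0.596).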

How the data were processed

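The authors deposited 1 table of expected counts for each aortic library, unnormalised and with partial reads. Per the submitters' processing notes, the tools were RSEM 1.3.1, Bowtie2 and DESeq2 1.4.5, on build mm10 (annotation, filters and strand: not given in the sources used here). In 1 Sept2C111A file the column heading carries another library number than the deposited name, and GEO's sample was used. Counts were rounded, filtered with filterByExpr (minimum count 10) and scaled by TMM, and tested with edgeR 4.0.16 in R 4.3.3 (two-sided quasi-likelihood test, group only, Benjamini-Hochberg over 14466 genes). The SE is the absolute log2 fold change over the root of F. The 95% intervals are normal ones, 1.96 SE either side, and are narrower than edgeR's F test implies. DESeq2 1.42.0 was another test; its NA values were left as such. Other scalings, no filter, a replicate block and leaving out each library were tried, and the fits were tested on simulated data. Coordinates and transcript lengths come from GENCODE vM21. Replicates differed far beyond sampling noise (chi-square per degree of freedom from 52.6 to 248.7). Members, lists, markers and tests were chosen with earlier results of these data known. All members are named; of each other list, the 3 genes of smallest p and any called; for Agt, Ace and Agtr1a, the 3 genes of most similar pattern with a mean count of at least 50.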

Additional observations from a re-analysis of the deposited data

How the results depend on the processing

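All 8 tested members stayed without a call in edgeR under other size factors, no filter, the replicate block and leaving out each library. DESeq2 called Agtr1b (log2 fold change 2.21), and also called it without Sept2C111A library 3 (2.49) and without Apoe-/- marrow library 2 (2.49), where Ace was called too (1.01). It thus called 1 of the 8 members with all libraries, and 0 to 2 with 1 left out. Over all genes DESeq2 called 138 higher and 411 lower, against 0 and 0 in edgeR, with 1 peptidase and 3 AT1 coupling genes among them. The sign of Agt followed the settings: 0.002 with upper-quartile size factors, and -0.431 to 0.273 with 1 library left out. Agtrap ran from -0.112 to 0.244 and Lnpep from -0.549 to 0.182 in the same fits. DESeq2 turned the same signs with 1 library left out: Agt to 0.265, 0.245 and 0.02, Agtrap to -0.089, -0.124 and -0.008, and Lnpep to 0.172. Agtr1a itself stayed negative in every fit, from -0.856 to -0.22, and the joined row of Agtr1a and Agtr1b was at 0.017. The Ace to Pecam1 difference ran from -0.164 to 0.935, and the Agtr2 difference, -1.80, was fitted at -5.305 with no filter. Medians with 1 library left out ran from -0.125 to 0.221 for members, -0.357 to 0.004 for peptidases, -0.760 to 0.321 for kinins and 0.183 to 0.553 for the mineralocorticoid arm. With the replicate block, Agtr1b was at 2.138 (edgeR adjusted p = 0.4) and 0 genes were called. Same-numbered libraries deviated with correlations of 0.017, 0.129 and -0.166, and differently numbered ones with -0.218 to 0.154. No pairing by number was visible, but with 3 libraries a group these values cannot exclude one. The causes were not tested. Depth limits Agt, Agtr1b and Agtr2 most.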
